A study of Penaeus merguiensis with 6 samples.

Results

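This report describes 163 of 57303 assembled genes of the banana shrimp that were picked because their level was low in a single control library, control 1. A gene was taken when its mean over the 6 libraries was at least 20 and below 1000 FPKM (a fragment count corrected for transcript length and library size), which left 3012 genes. In addition, control 1 had to be at most 0.5 times the lowest of the other 5 libraries, and the higher of control 2 and control 3 had to reach the lowest cadmium library. The second condition removed 32 of the 195 genes that met the first, those in which all 3 cadmium libraries lay above control 2 and control 3. The genes were thus chosen by their FPKM in all 6 libraries, so their levels are given as a description and carry no test.

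The libraries came from hepatopancreas of Penaeus (Fenneropenaeus) merguiensis. The cadmium group was 3 libraries of shrimp kept 72 hours at 0.5 mg/L cadmium, given as cadmium chloride, and the control group was 3 libraries sampled at 72 hours at 0 mg/L. The design text names the cadmium dose as the concentration lethal to the median animal over that time. No strain, age, sex or moult stage is given, and the labels do not say how many animals or which tank each library represents.

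The hepatopancreas is the main digestive gland of decapod crustaceans. It secretes digestive enzymes, absorbs nutrients, stores lipid and glycogen, and takes up and sequesters metals such as cadmium. Its tubules hold several epithelial cell types, among them storage cells and secretory cells, and bulk RNA mixes all of them. In such libraries fewer cells of a type and less RNA per cell cannot be told apart. FPKM values are relative, so a rise of a few very abundant transcripts in a library lowers the values of the others in it.

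The assembled genes are known only by ID, in the form of a de novo assembly, and 0 of 57303 were paired with a gene name. The tissue label could therefore not be checked against marker genes, and the genes below are described by level, pattern and rank. The deposited FPKM summed to between 1702598 and 2003399 per library, and fragment numbers are not recorded. Control 1 had 40.3% of its summed FPKM in the 5 most abundant genes of the series, and the other libraries had 23.4% to 32.8%. All genes with a mean under 1000 FPKM together held 20% in control 1, 18.5% in control 2 and 23.7% to 26.6% in the other 4 libraries.

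The 163 genes were of 2 kinds. In 95 of them control 1 was truly below each of the other 5 libraries. In the other 68 control 1 stood at 0 together with at least 1 more library, and 0 is at most 0.5 times 0, so the rule took them although control 1 was not low alone. These 68 were mostly genes of control 3: it was the highest library in 53 of them, and in 44 it was at least 10 times the highest of the rest. Their median was 146.23 FPKM in control 3, 0.36 FPKM in cadmium 3 and 0 FPKM in each of the other 4 libraries. In 18 a single library was above 0, and in 16 of the 18 that library was control 3. The most abundant of the 68 read 838.99 FPKM in control 3, 41.94, 98.06 and 99.8 FPKM in the cadmium libraries and 0 FPKM in control 1 and control 2. The next read 236.64 FPKM in control 2, 389.89, 179.15 and 95.49 FPKM with cadmium and 0 FPKM in control 1 and control 3. The third read 753.62 FPKM in control 3 and 0 FPKM in all other libraries. The split into the 95 and the 68 was made after the values were seen, and the text from here on is about the 95 unless it says otherwise.

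As deposited, control 1 held the most genes that were both below all other libraries and at most 0.5 times the lowest of them. It was not the library most often lowest. Without the ratio, control 2 was lowest in 714 genes of the range (23.7%), cadmium 3 in 678 (22.5%) and control 1 in 639 (21.2%). Of the 3012 genes in the range, 115 (3.82%) were at most 0.5 times, and below, the lowest other library in control 1, the 95 and 20 more in which the cadmium libraries lay above both other controls. The same count was 62 (2.06%) for control 2, 63 (2.09%) for control 3, 15 (0.498%) for cadmium 1, 7 (0.232%) for cadmium 2 and 21 (0.697%) for cadmium 3. All 3 control libraries thus had more such genes than any cadmium library, as deposited and after each of 5 other scalings. The order among controls depended on the scaling: after upper-quartile scaling control 3 had 118 and control 1 had 100, and with summed FPKM of genes under a mean of 1000 made equal they had 96 and 97. After the last scaling 82 of the 95 genes were still at most 0.5 times the lowest other library in control 1. That scaling divided control 1 by 0.871 and the other libraries by 0.905 to 1.11. The genes were picked at a ratio of at most 0.5, so most had to stay low. Whether the share taken by the most abundant genes plays a part was not tested. With ties at 0 counted, as the rule is written, the counts were 195 for control 1, 164 for control 2, 96 for control 3, and 91, 83 and 64 for cadmium 1, 2 and 3. Control 2 was then close to control 1, because 102 of its 164 were ties.

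**Figure D1:**
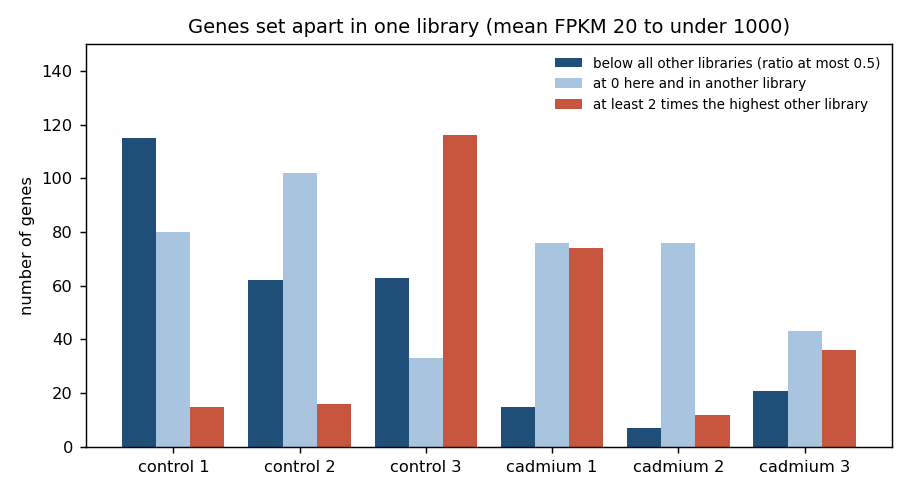
Number of genes (vertical axis) with a mean FPKM of 20 to under 1000 that were set apart in each library (horizontal axis), as deposited. Dark bars count genes at most 0.5 times and below the lowest other library, pale bars genes at 0 there and in another library, red bars genes at least 2 times the highest other library. Control 1 has the tallest dark bar (115) and control 3 the tallest red bar (116).

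The opposite pattern was rare in control 1. In 15 genes of the range control 1 was at least 2 times the highest other library, against 16 in control 2, 116 in control 3 and 74, 12 and 36 in the cadmium libraries. The median gene was little shifted in control 1. Over the 3012 genes the median log2 ratio of control 1 to the median of the other 5 libraries (FPKM + 1) was -0.08, against -0.15 for control 2 and 0.14 for cadmium 2. The 5th percentile was -2.09 in control 1, -1.63 in control 2, -1.54 in control 3 and -0.99 to -0.65 in the cadmium libraries. The low tail of control 1 was thus longer than that of any other library, on values as deposited.

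The share of genes low in control 1 was higher among abundant genes. Control 1 was low in 55 of 1666 genes with a mean of 20 to 50 FPKM (3.3%), in 21 of 656 genes from 50 to 100 FPKM (3.2%), in 20 of 463 genes from 100 to 300 FPKM (4.32%) and in 19 of 227 genes from 300 to 1000 FPKM (8.37%). At the same levels control 3 was low in 24, 21, 9 and 9 genes and control 2 in 32, 13, 11 and 6. Above the range, control 1 was low in 23 of 220 genes with a mean of at least 1000 FPKM (10.5%), where control 3 was low in 36 and control 2 in 2. The share of control 3 was thus also highest above the range, and a higher share among abundant genes was not particular to control 1. The most abundant of the 23 genes low in control 1 read 11510 FPKM there and 24539 to 41666 FPKM in the others.

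The deficit in control 1 was mostly several-fold. The 95 genes had a median of 7.78 FPKM in control 1, against 67.59 FPKM in control 2, 85.19 FPKM in control 3 and 57.62, 64.81 and 77.11 FPKM in cadmium 1, 2 and 3. Together they summed to 2811 FPKM in control 1 (0.158% of the library), 17915 FPKM in control 2 (0.894%), 27939 FPKM in control 3 (1.63%) and 15717, 17444 and 25130 FPKM in the cadmium libraries (0.923%, 0.972% and 1.41%). In the 85 genes above 0 in control 1, the median of the other 5 libraries was 7.38-fold higher than control 1 at the median gene, with quartiles of 4.35-fold and 12.6-fold. It was under 4-fold in 11 genes, 4-fold to under 10-fold in 42, 10-fold to under 100-fold in 26 and at least 100-fold in 6. The other 10 genes were listed at 0 in control 1.

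**Figure D2:**
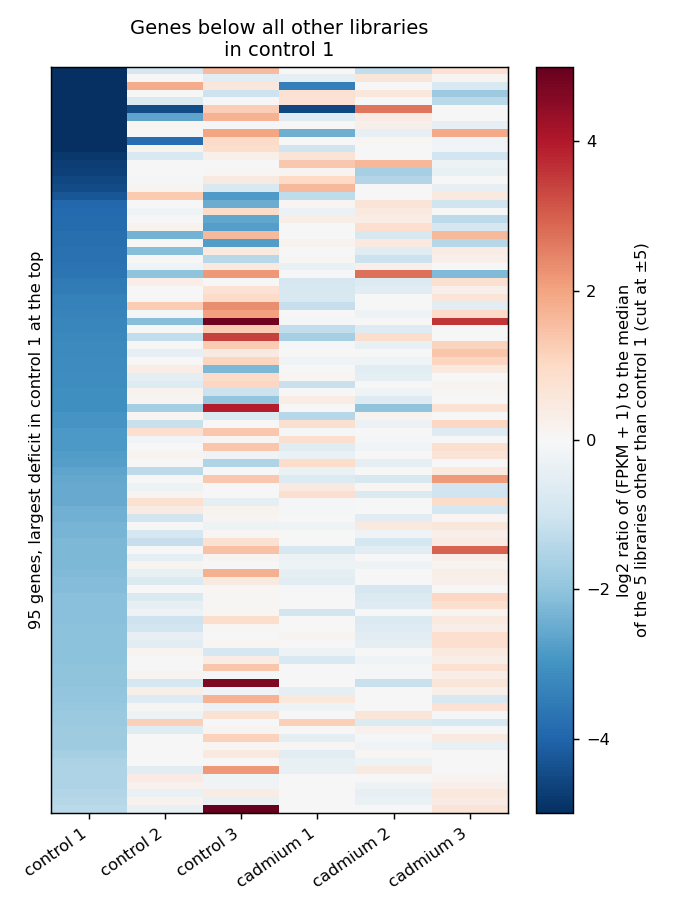
Each line is 1 of the 95 genes below all other libraries in control 1, each column a library, and the colour the log2 ratio of FPKM + 1 to the median of the 5 libraries other than control 1. Blue is lower and red higher, with colours cut at ±5. Control 1 is blue throughout because the genes were chosen for it, and control 3 and cadmium 3 are often red.

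The gene with the highest mean, TR3522_c9_g1, also had the lowest ratio of control 1 to the lowest other library among the 85 genes above 0 in control 1. It read 1.3 FPKM in control 1, 1186.21 and 803.24 FPKM in control 2 and control 3, and 837.08, 1789.33 and 1296.07 FPKM with cadmium. Control 1 alone was near 0 while the other 5 libraries lay within 2.23-fold of each other, and their median was 912-fold above control 1. TR13982_c0_g1 had the next lowest ratio among these 85, at 0.61 FPKM in control 1 and 109.8, 184.38, 299.02, 183.2 and 71.48 FPKM in control 2, control 3 and cadmium 1 to 3. Another gene of this all-but-absent kind read 0.56 FPKM in control 1 and 61.09 to 371.81 FPKM in the others. In all 3 the control 2 and control 3 values lay within the span of the cadmium values, except for control 3 in the first, which lay just below it. The rest of the 6 genes at least 100-fold low were mixed. With 0.65 FPKM in control 1, a gene had both other controls within the cadmium span. Those at 0.74 and 0.18 FPKM did not: control 2 and control 3 read 14.93 and 331.71 FPKM against 61.9 to 130.03 FPKM with cadmium, and 1.87 and 76.79 FPKM against 35.13 to 42.54 FPKM.

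TR1385_c55_g1, the second most abundant, had a smaller deficit, under the lower quartile of 4.35-fold. It read 265.94 FPKM in control 1, 1178.9 and 1012 FPKM in the other controls and 1065.5, 1019.9 and 1342.07 FPKM with cadmium. The 5 libraries were within 1.33-fold of each other, and their median was 4.01-fold above control 1. The third most abundant gene was listed at 0 in control 1 and read 481.93, 2581.46, 857.26, 363.42 and 1414.14 FPKM in control 2, control 3 and cadmium 1 to 3. Here the 5 other libraries themselves spanned 7.1-fold, with control 3 highest.

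The other genes among the 10 most abundant were all well above 0 in control 1. The fourth read 79.08 FPKM there and 818.9 to 1411.32 FPKM elsewhere. The fifth to the eighth read between 172.37 and 238.17 FPKM in control 1 and between 551.02 and 1839.58 FPKM elsewhere. All 4 of these had their highest value in control 3 or cadmium 3. The ninth read 275.18 FPKM in control 1, 920.43 and 711.73 FPKM in the other controls, and 794.21, 662.31 and 954.2 FPKM with cadmium. The tenth read 172.53 FPKM in control 1 and 388.76 to 994.12 FPKM elsewhere.

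**Figure D3:**
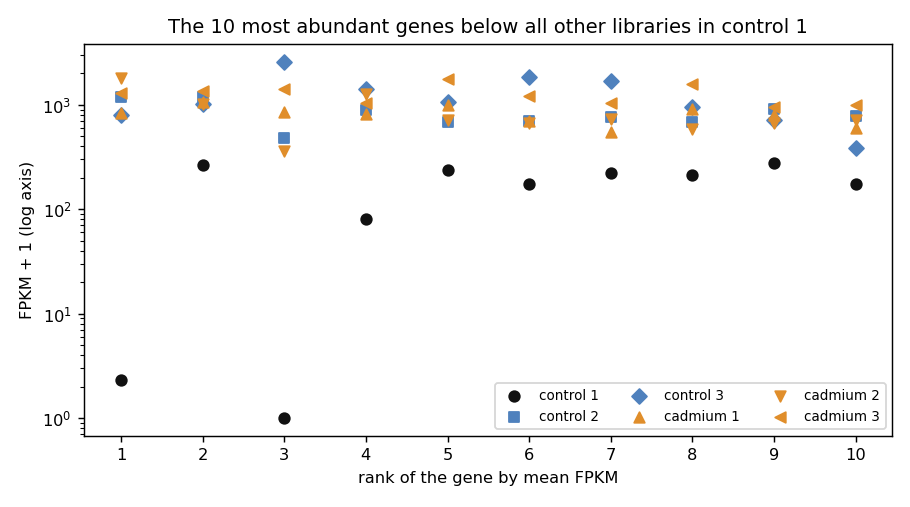
FPKM + 1 (vertical, log axis) in each library for the 10 most abundant of the 95 genes, ordered by rank of mean FPKM (horizontal). Black circles are control 1, blue symbols the other controls and orange symbols the cadmium libraries. Control 1 lies under all other symbols in every column, at 1.3 FPKM for the first gene and 0 FPKM for the third, while blue and orange symbols overlap.

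Among the 10 genes listed at 0 in control 1, the lowest other library ranged from 1.77 to 363.42 FPKM. The second most abundant of them read 1818.16 and 736.18 FPKM in control 2 and control 3 and 46.14, 497.44 and 292.68 FPKM with cadmium. The third read 35.08, 139.92, 5.61, 26.38 and 132.17 FPKM in control 2, control 3 and cadmium 1 to 3. A gene with a mean of 31.8 FPKM was steadier, at 41.63, 35.9, 38.69, 46.2 and 28.61 FPKM in the same order. How many fragments stand behind these values was looked for in the steps between low values. In 2 of the 95 genes, both at 0 in control 1, all values were whole multiples of what 1 fragment is worth, with 10 and 9 fragments over the 6 libraries in the smallest whole numbers that give the values. The larger read 24.44, 25.09, 65.74, 81.97 and 20.86 FPKM, which corresponds to 1, 1, 3, 4 and 1 fragments, so its absence from control 1 rests on very few fragments. The other 93 had no such solution, and of the 68 genes tied at 0, 5 of the 16 that could be examined had one. By the same steps 1 fragment was worth more in control 1 than in control 2 and the cadmium libraries (0.818 to 0.981 times control 1) and about as much as in control 3 (0.979 to 1.01 times).

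Most of the 95 genes also varied among the 5 libraries in which they were not low. The other 5 lay within 2-fold of each other in 17 of the 95 (17.9%), against 53.3% of the 3012 genes in the range. They spanned over 4-fold in 38 (40%), and over 10-fold in 17. In the range, 20.5% spanned over 4-fold, counting the 151 genes with a 0 among the 5 libraries, which none of the 95 had. The median coefficient of variation over the 5 libraries was 48.1% in the 95 genes and 25.8% in the range. The rule bounds these values only from below and through its second condition, so the shares are a description. In the 17 steady genes, where the 5 other libraries spanned up to 2-fold, control 1 stood apart most plainly: their median was 2.73-fold to 13.2-fold above control 1 in the 16 genes above 0 there. Of the 10 most abundant genes, the second, the fourth and the ninth were among the 17. A less abundant one read 8.83 FPKM in control 1 and 28.94, 28.77, 22.06, 23.87 and 28.77 FPKM in control 2, control 3 and cadmium 1 to 3.

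Where the other 5 libraries differed, control 3 and cadmium 3 were often high together. Control 3 was the highest library in 39 of the 95 genes (41.1%) and cadmium 3 in 26 (27.4%), against 21.4% and 18.5% of the genes in the range counted over the same 5 libraries. In 35 of the 95 genes (36.8%) both lay above control 2, cadmium 1 and cadmium 2, against 12.2% of the range. The 9 other pairs of libraries were on top in 3 to 14 genes. Over the range the most frequent top pair was cadmium 1 with cadmium 2 (26.9%), which was on top in 6 of the 95 (6.32%). The second condition of the rule shapes these contrasts. It bars genes with all cadmium libraries above control 2 and control 3, which are 20.1% of the range. In the barred genes control 3 cannot be on top, and cadmium 1 with cadmium 2 can. The shares of the 95 and of the range therefore have unlike bases and are a description. The 35 genes had a median of 200.59 FPKM in control 3 and 159.71 FPKM in cadmium 3, against 44.96 FPKM in control 2, 56.73 and 55.31 FPKM in cadmium 1 and cadmium 2, and 9.7 FPKM in control 1. The order of these 3 levels follows from the rule and from how the 35 were picked, so it is no result. The 35 include 10 of the 18 genes with a mean of at least 300 FPKM.

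In a smaller set control 3 was low as well. In 8 of the 95 genes (8.42%) control 3 was at most 0.5 times the lowest of control 2 and the cadmium libraries, which held for 5.15% of the range. The share of the range also counts genes where control 3 tied at 0 with another of these libraries, which none of the 95 did. The most abundant of the 8 read 10.71 FPKM in control 1 and 24.18 FPKM in control 3, against 190.32 FPKM in control 2 and 167.25, 303.09 and 92.88 FPKM with cadmium. In such genes 2 of the 3 controls were low, and control 1 was the lower one.

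Across the 95 genes, the Pearson correlation of log2(FPKM + 1) was lowest between control 2 and control 3 (0.53) and between control 3 and cadmium 1 (0.53), and highest between control 2 and cadmium 1 (0.85). For control 3 and cadmium 3 it was 0.75, against 0.51 over the 3012 genes in the range. Other pairs differed from the range too. The range value was 0.73 for control 2 and cadmium 1 and 0.43 for control 3 and cadmium 1, both lower than in the 95. It was 0.55 for control 2 and control 3, slightly higher than in the 95. The range also holds genes with a 0 among these libraries, which none of the 95 had. These are correlations across genes, which share libraries and the rule and are not independent.

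Which genes change with exposure is the question of the cadmium and control groups, and these genes bear on it because control 1 is 1 of its 3 controls. With all 6 libraries, 90 of the 95 genes had a fitted increase with cadmium, at a median log2 difference of 0.86, against a median of 0.11 over all 19862 genes tested. Without control 1, 45 were higher and 50 lower with cadmium, at a median of -0.03, against 0.11 over all genes. None of the 95 passed the threshold with 6 libraries (limma, smallest adjusted p = 0.537), where 0.357% of all genes tested did, and 0 had an unadjusted p under 0.05, against 9.53% of all genes. None passed without control 1 (limma, smallest adjusted p = 0.288), where 0.171% of all genes did, and 2 had an unadjusted p under 0.05, against 7.09% of all genes. Both were lower with cadmium, as were 1.96% of all genes at that p. The rule used this contrast: by its conditions the groups overlap in each of the 95 genes. Nothing is read from these counts. All 95 passed the filter on low values, and 15 of the 68 tied genes did, none of them past the threshold (limma, smallest adjusted p = 0.446).

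**Figure D4:**
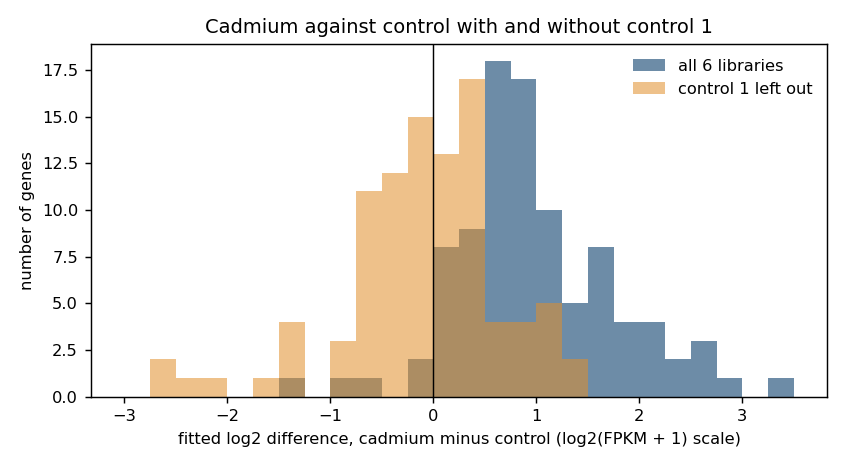
Number of the 95 genes (vertical axis) by fitted log2 difference, cadmium minus control, on the log2(FPKM + 1) scale (horizontal axis, steps of 0.25). Blue bars use all 6 libraries (median 0.86) and orange bars leave out control 1 (median -0.03), and the brown overlap holds both.

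The genes named by ID had these fitted values with and without control 1. For TR3522_c9_g1 the log2 difference was 3.26 ± 2.39 (SE) with 6 libraries and 0.35 ± 0.40 (SE) without control 1. For TR13982_c0_g1 it was 2.31 ± 1.83 (SE) and 0.15 ± 0.65 (SE), and for TR1385_c55_g1 it was 0.73 ± 0.58 (SE) and 0.05 ± 0.24 (SE). In each, leaving out control 1 took both the difference and its error down. The genes were picked with control 1 as the lowest library, so the fall in the difference was set by the rule. The values are a description and no result.

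Set against control 2 and control 3 alone, the cadmium libraries gave no gene of the 95 past the threshold (limma). In 6 of the 95 (6.32%) all cadmium libraries lay below both control 2 and control 3, against 4.88% of the range. In none did they lie above, because the rule excludes it, against 20.1% of the range. The 4.88% has these excluded genes in its base, so no difference is read from the 2 shares of genes lower with cadmium. The largest fitted decrease without control 1 was in a gene at 0.17, 1.31 and 227.05 FPKM in control 1, 2 and 3 and 2, 1.92 and 3.65 FPKM with cadmium. It rests on control 3. The next was the gene at 1818.16 FPKM in control 2 described above, with a log2 difference of -2.60 ± 1.10 (SE). The third read 2.89, 95.74 and 201.18 FPKM in control 1, 2 and 3 and 17.18, 39.04 and 26.87 FPKM with cadmium, a log2 difference of -2.36 ± 0.48 (SE) without control 1 and -0.64 ± 1.45 (SE) with it. In this gene the cadmium libraries lay between control 1 and the other controls. The same holds for all 6 genes with the cadmium libraries below both, because the rule puts control 1 lowest.

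At the other end, the largest fitted increase without control 1 was in a gene at 0.18, 1.87 and 76.79 FPKM in control 1, 2 and 3 and 39.43, 42.54 and 35.13 FPKM with cadmium. Its 3 controls spread more widely than its cadmium libraries. The next read 10.71 FPKM in control 1 and is the gene with a low control 3 described above. The third read 5.66, 99.4 and 16.77 FPKM in control 1, 2 and 3 and 107.83, 156.42 and 49.36 FPKM with cadmium, so that control 2 matched the cadmium libraries and the other controls did not.

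The IDs carry 1 feature that the rule did not use, the assembly cluster named by their prefix. The 95 genes had 92 prefixes, and 5 of them (5.26%) shared one with another of the 95, against 25.5% of the genes in the range that shared one within the range. The 2 percentages are over lists of unequal length, and a gene in a short list has fewer others to share a prefix with. They therefore do not show whether the 95 were more or less clustered than the range. The cluster TR1385 held 3 of them. It has 8 assembled genes, 7 with a mean of at least 20 FPKM, and control 1 was the lowest library in all 7. Besides TR1385_c55_g1, the other members read 100.83 FPKM in control 1 against 396.81 to 526.09 FPKM, and 8.19 FPKM against 57.62 to 182.9 FPKM. The 4 genes of the cluster above the range read 1429, 997, 570 and 469 FPKM in control 1. The most abundant of the 4 had 6892 to 9326 FPKM in the other libraries. The others were less far apart, with control 1 at 0.518 to 0.779 times the lowest other library. Assembled genes of 1 cluster can be fragments or copies of 1 transcript, so they are not independent.

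**Figure D5:**
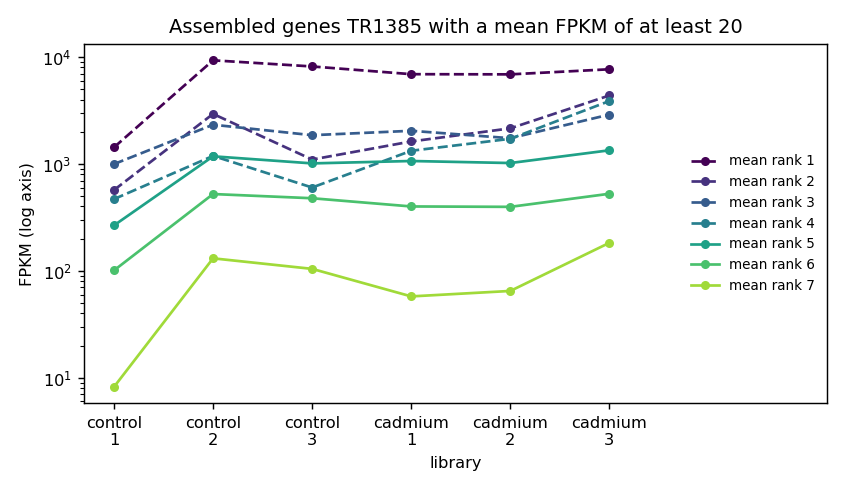
FPKM (vertical, log axis) of the 7 assembled genes of cluster TR1385 with a mean of at least 20 FPKM, by library (horizontal), ordered in the key by mean. Solid lines are the 3 genes among the 95 and dashed lines the 4 genes with a mean of at least 1000 FPKM, and lines only join values of 1 gene. Control 1 is the lowest point of all 7.

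The second cluster with 2 of the 95 genes, from 1 component, held the gene at 139.92 FPKM in control 3 described above and a more abundant one. The latter read 47.29 FPKM in control 1, 443.44 and 1076.97 FPKM in control 2 and control 3, and 427.29, 338.37 and 971.01 FPKM with cadmium. Both had control 3 and cadmium 3 as their highest libraries. Over all clusters with 1 of the 95 genes, 33 other genes were in the range, and control 1 was the lowest library in 5 of the 33 (15.2%), against 19.1% of the genes in the range outside the 163. In these clusters 11 genes had a mean of at least 1000 FPKM. Control 1 was lowest in 8 of the 11 and at most 0.5 times the lowest other library in 4. Without the TR1385 genes described above, it was lowest in 4 of 7 and at most 0.5 times in 3. Over all 220 genes of that level it was lowest in 86 (39.1%) and at most 0.5 times in 23 (10.5%).

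At the edge of the rule the ratios inside and outside were close, but the other libraries spread more widely in some genes inside. The last gene inside had a ratio of 0.499, at 5.22 FPKM in control 1 and 10.46 FPKM in control 3, and 36.84 to 77.11 FPKM in the others. The next inside had ratios of 0.477 and 0.475, and the first of these read 10.8 FPKM in control 1 and 22.63 to 156.4 FPKM in the others. The first outside had a ratio of 0.504, at 8.84 FPKM in control 1 and 17.54 to 29.73 FPKM in the others. The next outside had ratios of 0.506 and 0.508, and the first of these read 152.67 FPKM in control 1 and 301.69 to 542.94 FPKM in the others.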

How the data were processed

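Per the labels' protocols, hepatopancreas RNA was isolated with TRIzol reagent and libraries were run on the Illumina HiSeq platform. The authors deposited 1 table of FPKM values with 2 decimals for 57303 assembled genes, and per the file headers its 6 columns are the sample titles. The assembler, the quantifier, versions and any filter: not given in the sources used here. The genes and comparisons were chosen with earlier results of these data known.

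Values were used as deposited. Cadmium was compared with control on log2(FPKM + 1) by limma (version 3.58.1, R 4.3.3), 3 against 3 libraries without covariates and with the trend option of eBayes. The test covered the 19862 genes that reached 1 FPKM in 3 or more libraries, with Benjamini-Hochberg adjustment over all of them and a two-sided threshold of 0.05. A fold on this scale understates the change of low genes. The fit was tested on simulated data. The libraries are not stated to come from separate animals, so the p-values rest on differences among these libraries, which may be technical.

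The worth of 1 fragment relative to control 1 was taken from ratios within 0.75 to 1.33 in genes above 0 in 2 to 4 libraries, by size of the step. A gene counted as resting on few fragments when it was above 0 in at least 3 libraries and all values were whole multiples of 1 step (tolerance 1.5% plus rounding) that added up to no more than 20 fragments. Depth itself is unknown, and no counting intervals are given. Genes named by ID were the 2 with the highest mean and the 2 with the lowest ratio above 0. Others are given by rank, and those outside the rule for names were chosen after their values were seen. Python 3.11.15 with pandas 2.3.3 was used for the rest.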

Additional observations from a re-analysis of the deposited data

How the results depend on the processing

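The count of genes low in control 1 depended mainly on the range of means. With means of 50 to under 1000 FPKM, 71 genes met the rule and 53 were below all other libraries, and with means of 10 to under 1000 FPKM the numbers were 337 and 161. The first condition alone then gave control 1 84 genes (60 without ties at 0) and 390 genes (197 without ties). With the 5 scalings, the 2 other ratios or no few-fragment genes, the counts for control 1 stayed within 1.5 times. Of the 95 genes 76 to 91 remained with a scaling, the fewest after upper-quartile scaling. With 1 library left out, 132 to 201 genes met the rule and 93 to 126 were below all others. The counts for control 1 by the first condition ran from 201 to 279 with ties and from 116 to 190 without, the highest of the latter without control 2 (175 without control 3). Leaving out control 1 itself gives no value for these counts, which come from no test. The median log2 difference of the 95 genes ran from -0.026 (without control 1) to 1.45 (without control 3, where all 95 were higher with cadmium and 16 had an unadjusted p under 0.05, smallest adjusted p = 0.0557 in limma). It was negative only without control 1, which is how the genes were chosen.

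Over all genes, 71 passed the threshold. The count was 27 with no filter on low values, 14 with a mean of at least 5 FPKM, 134 in limma without the trend, and 10 to 43 with 1 library left out, the lowest without cadmium 3. Adding a replicate block to the limma model left 1 gene past the threshold, and 0 of the 95 genes did, with 4 at an unadjusted p under 0.05. Nothing in the labels says that equal numbers mark paired libraries: deviations of same-numbered libraries correlated at 0.0144 to 0.0369, and 5 of 6 libraries correlated best with their own number. None of the 95 genes passed in any of these fits. The cause of the differences between fits was not tested. Counting only genes below all others was chosen after seeing the data, as was the check on few fragments.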

Other observations

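The 15 genes of the same range that were at least 2 times higher in control 1 than in any other library had means of 25.2 to 241 FPKM, all below the most abundant of the genes that were low there. The most abundant read 482.77 FPKM in control 1, 224.4 and 184.74 FPKM in control 2 and control 3, and 197.76, 145.94 and 212.91 FPKM with cadmium. The next read 492.62 FPKM in control 1 and 118.65 to 169.61 FPKM in the others. The third read 291.7 FPKM in control 1 and 114.41 to 142.29 FPKM in the others. In each of these 3 the other 5 libraries lay close together, and control 2 and control 3 overlapped with the cadmium libraries.

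Of the 32 genes low in control 1 in which all cadmium libraries lay above control 2 and control 3, 30 were tested and 5 passed the threshold of the comparison of cadmium with control (limma, Benjamini-Hochberg adjusted p under 0.05), which 0.357% of all genes tested passed. For 20 of the 32 control 1 was below all other libraries, and for the other 12 it shared a value of 0. This count is a description, because the same contrast chose the 32 genes.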
